A study of Homo sapiens with 12 samples.

Results

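Palmitoleate alone was set against no fatty acid in wild-type K562 cells, with 1 library on each side out of the 12 labelled libraries of the series. The pair was chosen by its labels: both libraries belong to experiment 1, and both were read from the expression table made for that experiment. The series treated K562 cells, a cultured human leukemia line with erythroid and megakaryocytic features, with fatty acids bound to bovine serum albumin in 3 experiments, and other groups carried a GPAT4 knockout or an RNF213 knockdown. In every library the RNA of 3 biological replicates had been pooled before library preparation. The pair therefore has no replicate check, and its ratios describe these 2 libraries.

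The libraries used were the following. The palmitoleate library came from wild-type cells given palmitoleate and no palmitate. The untreated library of the same experiment came from wild-type cells with no fatty acid. Values are also set beside the palmitate library of experiment 1, which shares that untreated library, and beside a library of experiment 2 in which wild-type cells received palmitate and palmitoleate together, with an untreated library of its own. The labels' protocol names 0.2 mM palmitate for 20 h and states no dose for palmitoleate alone, and the legend in the table of experiment 2 gives 0.2 mM of each acid for 16 h for the mixture. Poly(A)-selected RNA was sequenced, and the values are FPKM, fragment counts scaled to transcript length and library size. In pooled bulk RNA, fewer cells that express a gene and less RNA per cell cannot be told apart.

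Palmitoleate is a monounsaturated fatty acid that cells make from saturated palmitate with the desaturase SCD. Cells that take up unsaturated fatty acids store them as triglyceride in lipid droplets and burn them in mitochondria, and unsaturated fatty acids are known to restrain the SREBP transcription factors, which drive the genes of fatty acid and sterol synthesis. The integrated stress response is a separate program in which the factor ATF4 turns on genes of amino acid supply and stress signalling, and saturated fatty acids are known to engage it together with the unfolded protein response.

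Ratios of the palmitoleate to the untreated library depended on transcript GC content. The genes compared were the 10287 that averaged 1 FPKM or more over both libraries and had a GC value, small RNA genes being set aside. Across them the log2 ratio of FPKM + 1 had a Spearman's rho of -0.77 with GC content. When the genes were divided into 10 equal bins by GC content, its median was 0.42 in the bin with the lowest and -0.82 in the bin with the highest GC content. The palmitate library of experiment 1 over the same untreated library had a rho of -0.65, the palmitoleate library over the palmitate library 0.15, and the mixture over its own untreated library -0.2. These coefficients are descriptions across genes. The curve on GC content was removed from every ratio, and the result is called the GC-adjusted ratio below. After that step the medians of the bins lay between -0.01 and 0.01, while the spread stayed wider among GC-rich genes, with quartiles of -0.13 and 0.13 in the lowest bin and of -0.29 and 0.34 in the highest. The GC-adjusted ratio still had a rho of -0.28 with transcript length, and its median was 0.30 in the bin of shortest transcripts when genes were divided into 10 bins by length.

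**Figure D1:**
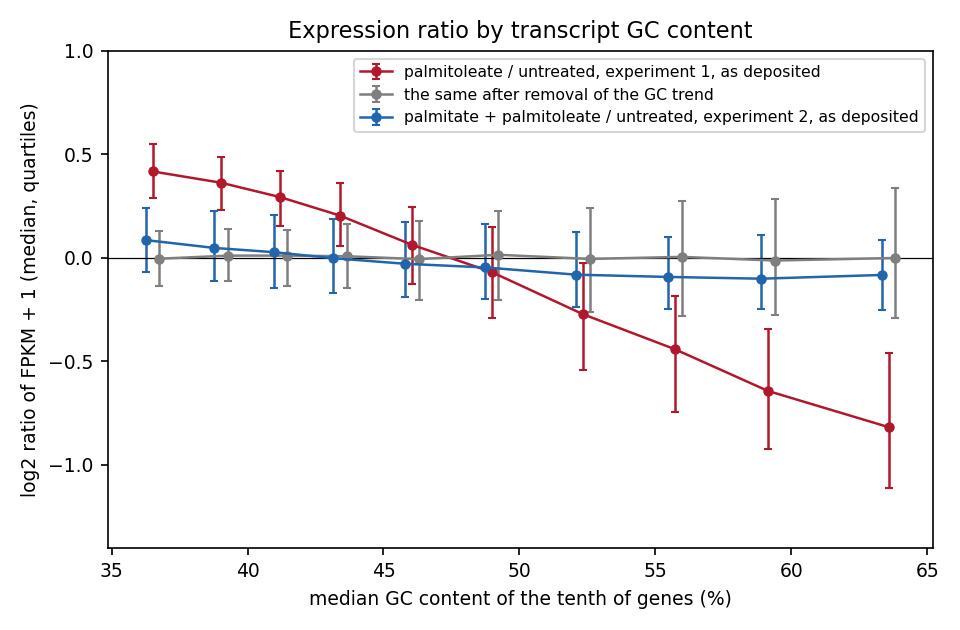
Median log2 ratio of FPKM + 1 in 10 bins of 10287 genes ordered by transcript GC content (x axis, %), with bars from the lower to the upper quartile. The ratio of palmitoleate to untreated ran from a median of 0.42 to -0.82 across the bins as deposited and was flat once the curve was removed, while the mixture of experiment 2 had a weaker slope.

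The palmitoleate library summed to 828230 FPKM and the untreated library to 709545 FPKM, with 10672 and 10870 genes at 1 FPKM or more in the palmitoleate and untreated libraries. RPS18 was the most abundant gene in both. The tables give no read counts, so sequencing depth is unknown and no counting interval is given. All 12 markers of K562 cells were above 1 FPKM in both libraries, with HBG1, a fetal globin, at 2923 FPKM with palmitoleate and 2120 FPKM untreated. Of 6 T-cell, 6 B-cell, 6 monocyte, 6 fibroblast, 6 epithelial and 6 endothelial markers, 2, 0, 1, 1, 2 and 0 reached 1 FPKM with palmitoleate and 1, 0, 1, 1, 2 and 0 untreated. CD3D, LYZ and EPCAM accounted for most of that signal, with 39.5, 57.8 and 62.3 FPKM in the palmitoleate library and 30.9, 56.9 and 46.8 FPKM in the untreated library. The other epithelial marker detected, MUC1, went the other way, with 5.50 FPKM with palmitoleate and 21.5 FPKM untreated and a GC-adjusted log2 ratio of -1.18. CD8A, CD163, KRT5 and KRT14 were listed at 0 in both.

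A gene was counted as higher or lower where its GC-adjusted ratio was at least 1.5-fold, which is 0.58 on the log2 scale. By that count 501 genes (4.87%) were higher and 480 genes (4.67%) were lower with palmitoleate than untreated. The share depended on GC content, from 0.292% higher and 1.36% lower in the lowest GC bin to 12.3% higher and 8.55% lower in the highest, so the counts of each gene list below are read against genes of like GC content as well. Without the GC step 603 genes (5.86%) were higher and 1979 genes (19.2%) lower. With the length trend removed too, 294 genes (2.86%) were higher and 497 genes (4.83%) lower. limma, which took the spread from the 3 palmitate ratios of the series on the assumption that this pair varies as they do, called 0 genes after Benjamini-Hochberg adjustment, where 0.99 was the smallest adjusted p and 328 genes had an unadjusted p under 0.05. The intervals given below are 95% limma intervals on the GC-adjusted log2 ratio, and an interval that leaves out 0 was not corrected for the number of genes.

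Genes of sterol and fatty acid synthesis were lower with palmitoleate than untreated. Of 13 compared genes of cytosolic fatty acid synthesis and its supply, 6 were at least 1.5-fold lower and 0 were higher, with a median GC-adjusted log2 ratio of -0.54 (46.2% lower, against 6.68% among all genes of the same GC bins). Of 20 compared enzymes of the mevalonate and sterol pathway, 6 were lower and 1 was higher, with a median of -0.39 (30% lower, against 5.06% at like GC content). Of 14 genes of sterol uptake and SREBP control, 4 were lower and 0 were higher, with a median of -0.32 (28.6%, against 4.49%). Of 11 desaturases and elongases, 4 were lower and 0 were higher, with a median of -0.24 (36.4%, against 4.18%). All 4 medians stayed below 0 with the GC trend kept and with the length trend removed. These lists were written with earlier results of these data known, so their shares are not independent evidence.

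INSIG1, the membrane protein that holds the SREBP escort SCAP in the endoplasmic reticulum and is itself an SREBP target, had 20.8 FPKM with palmitoleate, 103 FPKM with palmitate and 50.1 FPKM untreated. The palmitoleate library was thus the lowest of the 3, and the GC-adjusted log2 ratio of palmitoleate to untreated was -1.36 (interval -2.23 to -0.49). INSIG1 lies on chromosome 7, from 155089485 to 155101945 of GRCh37, and only 1 of the 200 genes nearest to it in GC content and expression had a lower ratio.

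SREBF2 encodes the SREBP that mainly drives sterol genes. It had 11.97 FPKM with palmitoleate, 23.8 FPKM with palmitate and 27.8 FPKM untreated. The GC-adjusted log2 ratio was -0.62 (interval -1.42 to 0.18) for palmitoleate over untreated, and -0.55, within 1.5-fold, with the length trend removed. For palmitate over untreated the GC-adjusted ratio was 0.39. The 4 lists above had 11, 15, 12 and 10 promoters that could be searched, in the order given, and that of FASN was not among them. The SREBF2 promoter is shown because it was 1 of 2 of these that hold the classic sterol regulatory element, a sequence SREBPs bind. The capitals spell the searched element. The other was that of MID1IP1, an activator of acetyl-CoA carboxylase, whose log2 ratio of -0.18 was within the limit of 1.5-fold. On either strand it stood in 13 of 27305 RefSeq promoter windows (0.0476%), each from 250 bases before to 50 bases after a gene start. The SREBF2 window is chr22:41832855-41833154 of GRCh38.p14, plus strand, and the element begins 134 bases before the start.
SREBF2: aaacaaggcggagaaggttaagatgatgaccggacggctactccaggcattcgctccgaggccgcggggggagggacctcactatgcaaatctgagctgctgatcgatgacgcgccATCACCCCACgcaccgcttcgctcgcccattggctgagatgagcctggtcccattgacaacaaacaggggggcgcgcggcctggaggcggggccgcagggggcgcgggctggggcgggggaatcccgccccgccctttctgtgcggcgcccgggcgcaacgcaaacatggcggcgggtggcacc
A window without the element shows only that these letters are not in it.

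Among the enzymes of sterol synthesis, MVD, which makes isopentenyl diphosphate, had 5.79 FPKM with palmitoleate, 15.4 FPKM with palmitate and 27.9 FPKM untreated. Its GC-adjusted log2 ratio of palmitoleate to untreated was -1.28 (interval -2.33 to -0.22). DHCR7, the last enzyme of cholesterol synthesis by the Kandutsch-Russell route, had 14.1 FPKM with palmitoleate, 34.2 FPKM with palmitate and 51.1 FPKM untreated, with a ratio of -1.20 (interval -1.84 to -0.56). LSS, which closes the sterol ring, had 5.55 FPKM with palmitoleate, 12.6 FPKM with palmitate and 17.1 FPKM untreated, with a ratio of -0.88 (interval -1.47 to -0.29). For MVD, DHCR7 and LSS the GC-adjusted log2 ratios of palmitate to untreated were 0.12, 0.10 and 0.26, although FPKM was lower with palmitate. In all 3 the palmitoleate library was the lowest of experiment 1. The direction was not shared by every enzyme of the pathway. PMVK, the phosphomevalonate kinase, had 11.9 FPKM with palmitoleate, 9.48 FPKM with palmitate and 9.72 FPKM untreated, with a ratio of 0.90 (interval 0.14 to 1.66), which was 0.55 with the length trend removed and 0.27 with the GC trend kept, both within 1.5-fold.

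SCD, the desaturase that makes palmitoleate from palmitate, had 104 FPKM with palmitoleate, 265 FPKM with palmitate and 170 FPKM untreated. Its GC-adjusted log2 ratio of palmitoleate to untreated was -0.75 (interval -1.33 to -0.17). FADS1, a front-end desaturase of polyunsaturated fatty acids, had 111 FPKM with palmitoleate, 279 FPKM with palmitate and 262 FPKM untreated, and a ratio of -1.13 (interval -1.73 to -0.54). For both desaturases the palmitoleate library was the lowest and the palmitate library the highest of the 3. FADS3, a related desaturase, had 8.57 FPKM with palmitoleate, 14.99 FPKM with palmitate and 28.1 FPKM untreated. Its ratio was -1.13 (interval -2.32 to 0.07) for palmitoleate and -0.31 for palmitate. TECR, the reductase of the elongation cycle, had 32.6 FPKM with palmitoleate, 34.6 FPKM with palmitate and 102 FPKM untreated, with a ratio of -1.57 (interval -2.85 to -0.28). Here the palmitate library was nearly as low as the palmitoleate library.

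The same held for the leading genes of fatty acid synthesis. FASN, the fatty acid synthase, had 18.3 FPKM with palmitoleate, 21.5 FPKM with palmitate and 67.7 FPKM untreated, with a GC-adjusted log2 ratio of -0.96 (interval -1.65 to -0.27) for palmitoleate and -0.61 for palmitate. SREBF1, the gene of the SREBP that mainly drives fatty acid synthesis, had 6.52 FPKM with palmitoleate, 7.49 FPKM with palmitate and 25.3 FPKM untreated, with ratios of -1.01 (interval -1.63 to -0.39) for palmitoleate and -0.71 for palmitate. Both genes are GC-rich, at 65.3% and 63.2% GC for FASN and SREBF1. TKT, the transketolase of the pentose phosphate pathway, had 63.7 FPKM with palmitoleate, 70.2 FPKM with palmitate and 224 FPKM untreated, with a ratio of -1.33 (interval -2.36 to -0.29). No gene among the 200 nearest to TKT in GC content and expression had a lower ratio.

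In the mixture of experiment 2, which shares no library with this pair and also held palmitate, the sterol genes were not lower. Of the same 20 sterol enzymes, 9 were at least 1.5-fold higher and 0 were lower than in the untreated library of experiment 2, with a median GC-adjusted log2 ratio of 0.50, and over all genes 3.86% were higher and 0.865% lower. INSIG1 had 87.7 FPKM with the mixture and 44.1 FPKM untreated there, and SCD had 150 FPKM with the mixture and 97.6 FPKM untreated. For palmitate in experiment 1 the 20 sterol enzymes had a median of 0.50, with 9 higher and 0 lower, over a background of 14.7% higher and 11.4% lower. The median of the 13 fatty acid synthesis genes was -0.54 for palmitoleate, -0.21 for palmitate and 0.27 for the mixture. These differences between comparisons were not tested.

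**Figure D2:**
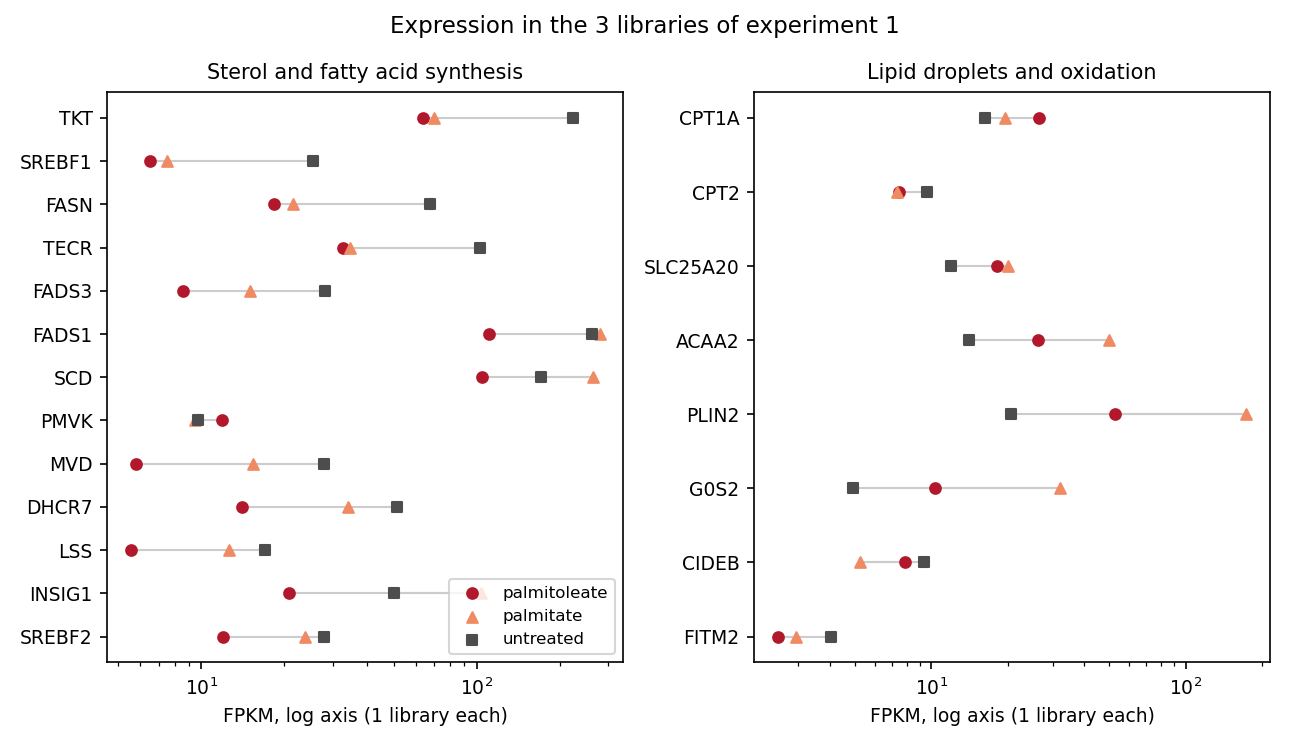
FPKM (x axis, log scale) of 13 genes of sterol and fatty acid synthesis and of 8 genes of lipid droplets and oxidation in the palmitoleate, palmitate and untreated libraries of experiment 1, with 1 point per library. INSIG1, SCD and FADS1 are lowest with palmitoleate and highest with palmitate, FASN, SREBF1, TKT and TECR are low with both acids, and PLIN2 and G0S2 lie between the other libraries.

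Lipid droplet genes were split. Of 10 compared genes, 2 were at least 1.5-fold higher with palmitoleate (20%, against 6.398% at like GC content) and 0 were lower (against 6.05%), with a median GC-adjusted log2 ratio of 0.04 that was below 0 with the GC trend kept (-0.13) or the length trend removed (-0.05). PLIN2, the main droplet coat protein outside fat tissue, on chromosome 9 from 19115758 to 19127604 of GRCh37, had 52.8 FPKM with palmitoleate, 173 FPKM with palmitate and 20.5 FPKM untreated. Its ratio of palmitoleate to untreated was 1.33 (interval 0.50 to 2.16), and 199 of its 200 nearest genes had a lower one. G0S2, an inhibitor of the triglyceride lipase PNPLA2, had 10.4 FPKM with palmitoleate, 32.1 FPKM with palmitate and 4.93 FPKM untreated, with a ratio of 1.47 (interval 0.38 to 2.56). For both genes the palmitoleate value lay between the palmitate and the untreated value. In the mixture of experiment 2 PLIN2 had 58.1 FPKM against 25.7 FPKM untreated, and G0S2 had 18.4 FPKM against 2.37 FPKM untreated. FITM2, a triglyceride-binding protein, and CIDEB, a droplet protein, stayed within 1.5-fold with log2 ratios of -0.48 and 0.42, and 9 of the 19 listed droplet genes, PLIN1 among them, were too low to be compared.

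Of 26 compared genes of fatty acid oxidation and PPAR response, 3 were at least 1.5-fold higher and 1 was lower, with a median of 0.13 (11.5% higher, against 4.54% at like GC content). CPT1A, the carnitine transferase that admits fatty acids to mitochondria, had 26.6 FPKM with palmitoleate, 19.5 FPKM with palmitate and 16.3 FPKM untreated, and a GC-adjusted log2 ratio of 0.86 (interval -0.12 to 1.84). It was highest with palmitoleate. SLC25A20, the carnitine-acylcarnitine carrier, had 18.2 FPKM with palmitoleate, 20.0 FPKM with palmitate and 11.99 FPKM untreated, with a ratio of 0.67 (interval 0.03 to 1.31) that lay within 1.5-fold with the GC trend kept (0.56) or the length trend removed (0.54). ACAA2, a thiolase of beta-oxidation, had 26.3 FPKM with palmitoleate, 50.1 FPKM with palmitate and 14.1 FPKM untreated, with a ratio of 0.64 (interval 0.07 to 1.21). The 3 higher genes thus included the outer transferase and the carrier. CPT2, the inner-membrane transferase, was lower, with 7.44 FPKM with palmitoleate, 7.34 FPKM with palmitate and 9.62 FPKM untreated and a ratio of -0.70 (interval -1.75 to 0.36), which was -0.33 with the GC trend kept. PDK4 and ANGPTL4, common markers of PPAR activity, were at 0.313 and 0.116 FPKM with palmitoleate and 0.0345 and 0.0381 FPKM untreated, below the level compared.

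Among 35 acyl-CoA synthetases, acyltransferases and phospholipid enzymes, 1 gene was higher and 1 was lower, with a median of -0.03. Each share was 2.86%, below the background. LPCAT1, which attaches saturated fatty acids to lysophosphatidylcholine, had 19.8 FPKM with palmitoleate, 8.47 FPKM with palmitate and 12.1 FPKM untreated, with a ratio of 1.01 (interval 0.41 to 1.61). PCYT2, of phosphatidylethanolamine synthesis, had 8.32 FPKM with palmitoleate, 6.17 FPKM with palmitate and 27.7 FPKM untreated, with a ratio of -0.79. Of 17 sphingolipid genes 1 was higher (5.88%, against 4.01% at like GC content) and 0 were lower (against 3.96%). Of 8 liver X receptor targets 1 was higher (12.5%, against 9.19%) and 2 were lower (25%, against 7.76%). The lower ones were SREBF1 and the phospholipid acyltransferase LPCAT3, which had 10.6 FPKM with palmitoleate, 9.83 FPKM with palmitate and 20.4 FPKM untreated.

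Genes of the ATF4 program were higher with palmitoleate. Of 32 compared genes, 20 were at least 1.5-fold higher and 0 were lower, with a median GC-adjusted log2 ratio of 0.73 (62.5% higher, against 6.54% at like GC content), and 30 of the 32 ratios were above 0. With the GC trend kept, 13 genes were higher and 1 was lower, with a median of 0.48. With the length trend removed, 21 were higher and 0 were lower. The list was compiled with the palmitate response of these libraries known, so its direction is not independent evidence.

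ASNS, the asparagine synthetase and a standard ATF4 target, had 292 FPKM with palmitoleate, 489 FPKM with palmitate and 99.3 FPKM untreated, and a GC-adjusted log2 ratio of 1.32 (interval 0.51 to 2.13) for palmitoleate over untreated. PHGDH, the first enzyme of serine synthesis, had 26.1 FPKM with palmitoleate, 51.5 FPKM with palmitate and 12.6 FPKM untreated, with a ratio of 1.26 (interval 0.21 to 2.31). DDIT4, an inhibitor of mTORC1, had 174 FPKM with palmitoleate, 246 FPKM with palmitate and 68.3 FPKM untreated, with a ratio of 1.92 (interval 0.45 to 3.40), and 200 of its 200 nearest genes had a lower one. These genes of amino acid supply and growth control lay between the palmitate and the untreated value. INHBE, a secreted activin subunit, had 7.82 FPKM with palmitoleate, 44.3 FPKM with palmitate and 2.82 FPKM untreated, with a ratio of 1.56 (interval 0.45 to 2.66). CEBPB, a partner of ATF4, had 8.58 FPKM with palmitoleate, 19.1 FPKM with palmitate and 5.95 FPKM untreated, with a ratio of 1.36 (interval 0.58 to 2.15), which was 0.46, within 1.5-fold, with the GC trend kept.

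CHAC1, which degrades glutathione, had 6.92 FPKM with palmitoleate, 6.76 FPKM with palmitate and 3.95 FPKM untreated, and a GC-adjusted log2 ratio of 1.41 (interval 0.23 to 2.59), which was 0.68 with the GC trend kept. Its promoter is shown because CHAC1 was 1 of 3 genes among the 24 ATF4 program promoters in the RefSeq table (12.5%) with the element TTGCATCA, a sequence bound by ATF4 with its C/EBP partners, and the one with the largest ratio. AARS and NARS, which charge alanine and asparagine tRNA, had the element and log2 ratios of 0.14 and 0.23, so its presence did not go with a ratio past 1.5-fold in every case. Over all windows, on either strand, 252 of 27305 (0.923%) held it. The CHAC1 window is chr15:40953221-40953520 of GRCh38.p14, plus strand, with the element in capitals 209 bases before the start.
CHAC1: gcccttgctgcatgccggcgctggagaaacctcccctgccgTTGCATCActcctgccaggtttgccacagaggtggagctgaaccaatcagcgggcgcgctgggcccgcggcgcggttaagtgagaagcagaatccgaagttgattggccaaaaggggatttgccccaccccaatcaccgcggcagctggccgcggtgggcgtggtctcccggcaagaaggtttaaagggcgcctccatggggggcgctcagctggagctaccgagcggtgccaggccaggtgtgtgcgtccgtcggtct

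Other stress factors of the list had smaller ratios than these genes. DDIT3, the pro-apoptotic factor CHOP, had 99.5 FPKM with palmitoleate, 384 FPKM with palmitate and 72.1 FPKM untreated. Its GC-adjusted log2 ratio was 0.58 (interval -0.33 to 1.49) for palmitoleate and 2.56 for palmitate. The palmitoleate ratio was 1.49-fold, just within 1.5-fold, and was 0.25 on the log2 scale with the length trend removed. ATF3, a stress-induced transcription factor, had 6.32 FPKM with palmitoleate, 67.8 FPKM with palmitate and 5.47 FPKM untreated, with ratios of 0.14 (interval -1.75 to 2.04) for palmitoleate and 3.42 for palmitate. The difference between the acids was not tested, having 1 library each. The ATF4 list had a median of 0.73 for palmitoleate, 1.96 for palmitate in experiment 1 and 1.41 for the mixture in experiment 2. In these comparisons 20, 30 and 28 of the 32 genes were at least 1.5-fold higher. Over all genes 4.87%, 14.7% and 3.86% were higher in the same order.

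The untreated library of experiment 1 was not at the level of the other untreated libraries for several of these genes. CHAC1 had 3.95 FPKM there and 0.362 and 0.41 FPKM in the untreated libraries of experiments 2 and 3, INHBE 2.82 against 0.884 and 0.849 FPKM, and DDIT4 68.3 against 20.4 and 20.9 FPKM, in tables that were normalised separately. Some genes counted as lower were highest in this untreated library. FADS1 had 262 FPKM there, against 95.5 and 181 FPKM in experiments 2 and 3. GFI1B had 64.5 against 30.7 and 18.5 FPKM, and MUC1 21.5 against 8.41 and 5.92 FPKM. Others lay between the untreated values of experiments 2 and 3, FASN with 67.7 against 67.9 and 40.2 FPKM and INSIG1 with 50.1 against 44.1 and 119 FPKM. The part of this untreated library in the ratios was not tested.

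**Figure D3:**
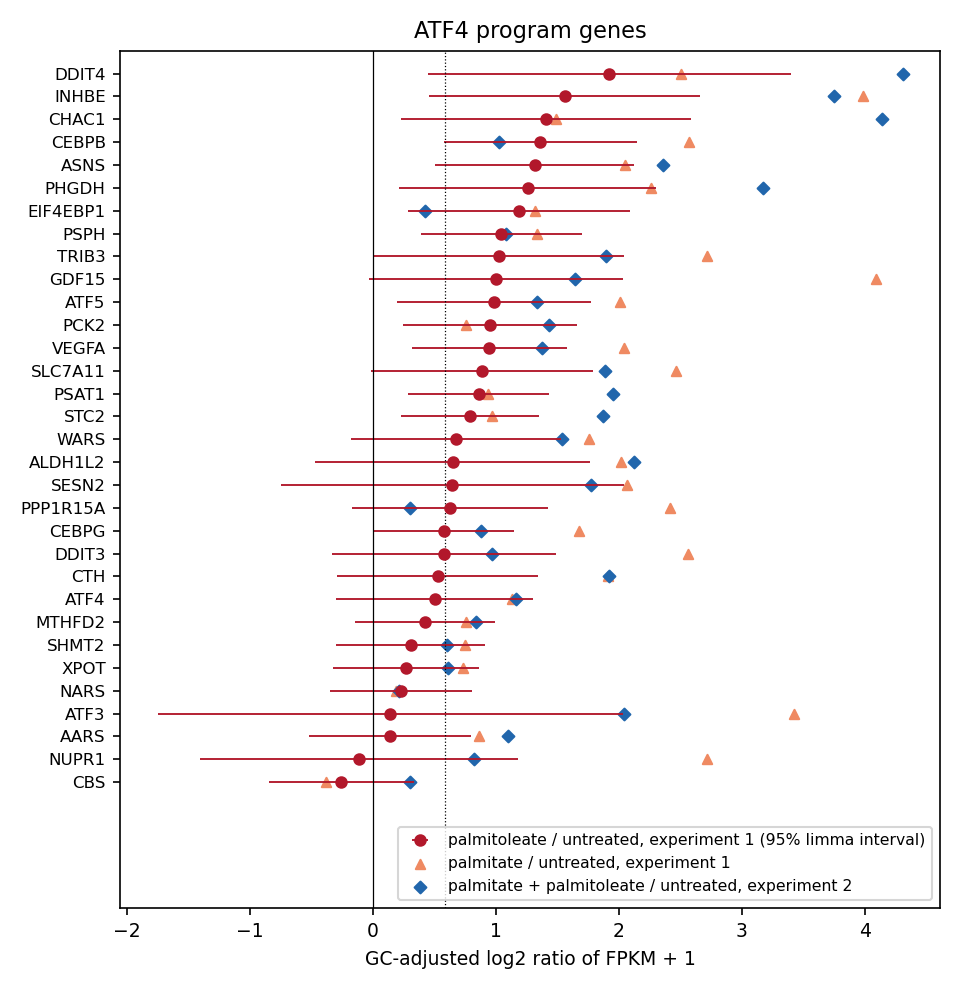
GC-adjusted log2 ratio of FPKM + 1 (x axis) for 32 ATF4 program genes, for palmitoleate over untreated in experiment 1 with 95% limma intervals, palmitate over the same untreated library, and the mixture over the untreated library of experiment 2. The dotted line marks 1.5-fold. 20 of the 32 palmitoleate points lie beyond it, and most palmitate and mixture points lie further right.

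Genes of protein folding that were higher with palmitate were mostly near the untreated level with palmitoleate. Of 29 endoplasmic reticulum chaperones and folding enzymes, 3 were higher and 1 was lower with palmitoleate, with a median of 0.07. Those shares were 10.3% and 3.45%, against 4.98% and 4.72% at like GC content. With palmitate 23 were higher and 0 lower, with a median of 1.19, over a background of 14.7% higher and 11.4% lower. HSPA5, the chaperone BiP, had 170 FPKM with palmitoleate, 1259 FPKM with palmitate and 132 FPKM untreated, with a GC-adjusted log2 ratio of 0.18 (interval -0.51 to 0.87) for palmitoleate. TXNDC5, a disulfide isomerase, was the lower one, with 10.1 FPKM with palmitoleate, 19.1 FPKM with palmitate and 27.3 FPKM untreated. The higher ones, FKBP2, SDF2L1 and SIL1, did not pass 1.5-fold with the GC trend kept or with the length trend removed. Their FPKM were 65.3, 116 and 9.67 with palmitoleate and 59.9, 121 and 9.11 untreated. Under those 2 settings 2 and 1 other genes of the list were higher. Of 25 genes of degradation from the endoplasmic reticulum, 1 was higher, HERPUD1, and 1 was lower, NPLOC4. Each share was 4%, against 3.91% higher and 4.06% lower at like GC content. HERPUD1 had 21.5 FPKM with palmitoleate, 96.7 FPKM with palmitate and 13.6 FPKM untreated.

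Of 21 NRF2 targets, 2 were higher (9.52%, against 4.39% at like GC content) and 1 was lower with palmitoleate, with a median of 0.11. The share lower was 4.76%, against 4.40%. With palmitate 14 were higher and 0 lower, over a background of 14.7% higher and 11.4% lower. SLC7A11, the cystine carrier shared with the ATF4 list, had 13.0 FPKM with palmitoleate, 43.5 FPKM with palmitate and 4.56 FPKM untreated. HMOX1, the inducible heme oxygenase, was at 0.0441 FPKM with palmitoleate and listed at 0 untreated. IL8, a neutrophil-attracting chemokine, had 1.79 FPKM with palmitoleate, 257 FPKM with palmitate and 2.56 FPKM untreated, with a log2 ratio of -0.87 (interval -3.60 to 1.87) for palmitoleate that was -0.35, within 1.5-fold, with the GC trend kept. Other genes of the 11 compared NF-kappaB targets were at least 1.5-fold higher with palmitoleate at low levels, IL20RB with 5.99 FPKM with palmitoleate, 26.7 FPKM with palmitate and 1.80 FPKM untreated, CXCL3 with 9.47, 117 and 4.86 FPKM, and CXCL2 with 4.97, 52.8 and 2.07 FPKM in the same order. The CXCL2 ratio of 0.83 was 0.52, within 1.5-fold, with the length trend removed. The NF-kappaB list was split, with 3 genes higher (27.3%, against 5.13% at like GC content) and 2 lower (18.2%, against 5.08%), so that its median of -0.02 does not describe its members. Of 14 immediate early genes 0 were higher (against 7.45% at like GC content) and 1 was lower (7.14%, against 6.74%). The lower one, EGR1, had 13.5 FPKM with palmitoleate, 38.2 FPKM with palmitate and 28.6 FPKM untreated. Its GC-adjusted log2 ratio of -0.60 (interval -2.99 to 1.80) was -0.56, within 1.5-fold, against the 200 nearest genes. The untreated libraries of experiments 2 and 3 had 8.17 and 6.41 FPKM of EGR1.

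Outside these lists, the largest GC-adjusted ratios above 0 among genes at a mean of at least 5 FPKM included S100P and BEX2. S100P, a calcium-binding protein, had 47.2 FPKM with palmitoleate, 136 FPKM with palmitate and 14.9 FPKM untreated, with a log2 ratio of 1.85 (interval 1.23 to 2.46), which was 1.21 with the length trend removed. BEX2, a brain-expressed X-linked gene, had 28.3 FPKM with palmitoleate, 134 FPKM with palmitate and 10.5 FPKM untreated, with a ratio of 1.73 (interval 1.00 to 2.46), and 1.41 with the length trend removed. Both were intermediate between palmitate and untreated. The other genes among the 15 largest were 4 of the ATF4 program, G0S2, HBA2, NAA38, C17orf89, the noncoding host gene SNHG9, the readthrough gene PMF1-BGLAP, the histone genes HIST1H4B and HIST1H2AH, and RPL21. RPL21 was listed at 0 untreated and at 63.8 FPKM with palmitoleate, and it has many processed pseudogenes, so no fold is given. The histone genes, HBA2 and PMF1-BGLAP share sequence or position with other genes, and their values are uncertain.

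The 15 largest ratios below 0 were led by GSK3A, GFI1B and TECR. GSK3A, a kinase of glycogen and Wnt signalling, had 9.53 FPKM with palmitoleate, 8.51 FPKM with palmitate and 38.3 FPKM untreated, with a log2 ratio of -1.65 (interval -3.23 to -0.08). GFI1B, a transcriptional repressor of erythroid and megakaryocytic development, had 22.0 FPKM with palmitoleate, 10.5 FPKM with palmitate and 64.5 FPKM untreated, with a ratio of -1.64 (interval -2.97 to -0.31). POLR2A, the largest subunit of RNA polymerase II, had 15.7 FPKM with palmitoleate, 12.4 FPKM with palmitate and 59.6 FPKM untreated, with a ratio of -1.38 (interval -2.59 to -0.17). All 3 had still lower FPKM with palmitate. The others included INSIG1, TKT, CTSA, ATP6AP1, WASH5P, TMEM223, UBAP2, EPN1, ATN1 and PLCD1. In the mixture of experiment 2 GSK3A had 38.0 FPKM against 48.8 FPKM untreated, and GFI1B had 42.2 FPKM against 30.7 FPKM untreated.

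**Figure D4:**
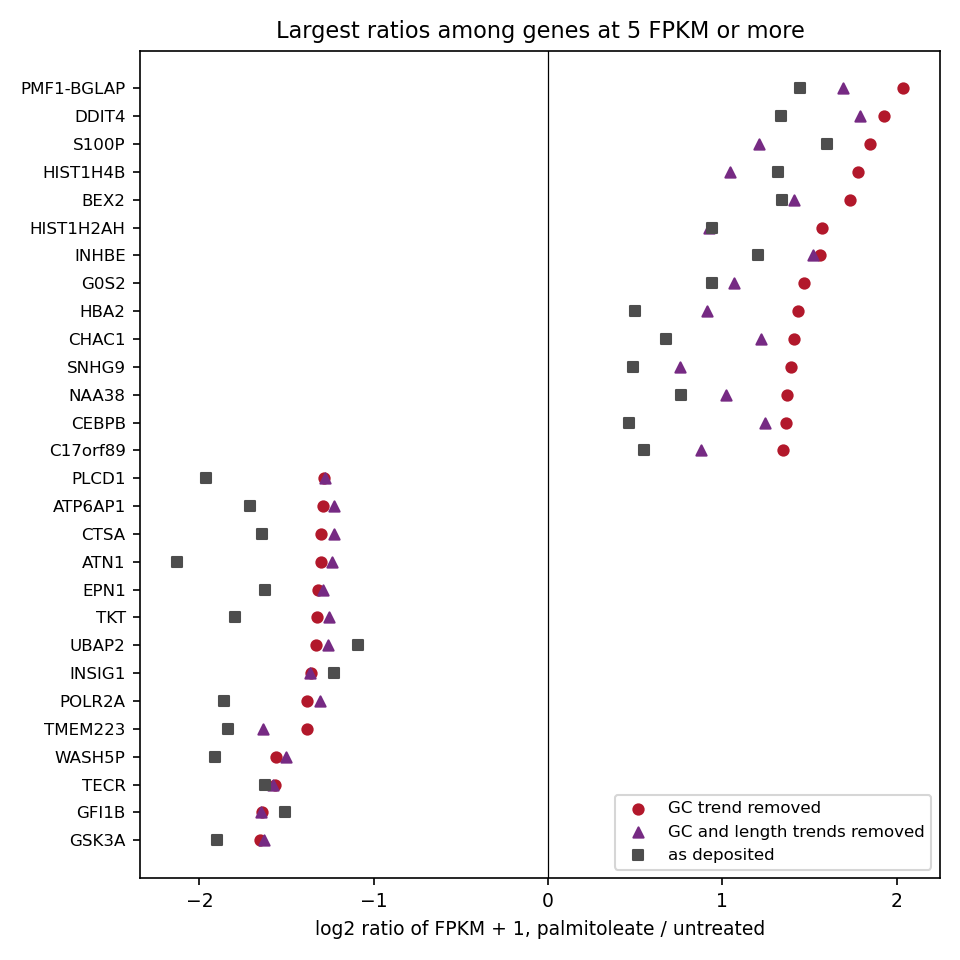
Log2 ratio of FPKM + 1 of palmitoleate to untreated (x axis) for 14 of the 15 largest GC-adjusted ratios below 0 and 14 of the 15 above 0, RPL21 being left out as it was listed at 0 untreated. Circles have the GC trend removed, triangles the GC and length trends, and squares are as deposited. Genes were taken only where circles and squares had the same sign, so their agreement in sign was fixed by the choice.

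The ribosomal, respiratory and globin lists, whose transcripts are short, had medians above 0 that were smaller with the length trend removed. Of 77 ribosomal protein genes 18 were at least 1.5-fold higher (23.4%, against 4.72% at like GC content) and 1 was lower. Their median of 0.44 was 0.31 with the length trend removed and 0.07 against the 200 nearest genes in GC content and expression. With the length trend removed 10 of the 77 were higher, and 2.86% of all genes. Of 66 nuclear genes of the respiratory chain and ATP synthase 9 were higher (13.6%, against 4.07%) and 0 were lower, with a median of 0.21 that was 0.02 with the length trend removed, and 0 genes were then higher. NDUFS6, a complex I subunit, had 426 FPKM with palmitoleate, 297 FPKM with palmitate and 291 FPKM untreated. Of 9 globin genes 4 were higher (44.4%, against 8.38%) and 0 were lower, with a median of 0.57 that was 0.23 with the length trend removed. With the length trend removed 3 globin genes were higher. With the GC trend kept 0 globin genes were higher, and the median was 0.29. HBE1, the embryonic beta-like globin, had 3716 FPKM with palmitoleate, 2297 FPKM with palmitate and 2620 FPKM untreated, and HBA1, an alpha-globin gene nearly identical to HBA2, had 92.2, 46.3 and 69.0 FPKM in the same libraries. In the mixture the globin median was -0.42.

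The erythroid list held regulators and also other genes such as KEL and TFR2. Among its 30 compared genes 1 was higher (3.33%, against 6.11% at like GC content) and 5 were lower (16.7%, against 5.68%). The median of 0.06 was below 0 with the GC trend kept (-0.15) or the length trend removed (-0.02). LMO2, a bridging protein of the GATA1 and TAL1 complex, was the higher one, with 104 FPKM with palmitoleate, 43.4 FPKM with palmitate and 76.3 FPKM untreated and a log2 ratio of 0.90 that was 0.45, within 1.5-fold, with the GC trend kept. With that trend kept 1 gene of the list was higher and 12 were lower. TFR2, the second transferrin receptor, had 17.8 FPKM with palmitoleate, 9.44 FPKM with palmitate and 48.1 FPKM untreated, with a log2 ratio of -0.63. KLF1, a master regulator of globin genes, had 44.6 FPKM with palmitoleate, 16.2 FPKM with palmitate and 71.8 FPKM untreated, and a ratio of 0.21 (interval -1.88 to 2.29) once its GC content of 65.7% was taken into account. The palmitate library had 18 of the 30 genes lower and 0 higher, over a background of 11.4% lower and 14.7% higher.

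Several lysosomal genes were lower with palmitoleate. Of 30 genes of autophagy and lysosomes 5 were lower and 0 were higher (16.7% lower, against 4.74% at like GC content), with a median of -0.09. CTSA, the protective protein of lysosomal glycosidases, had 7.29 FPKM with palmitoleate, 8.17 FPKM with palmitate and 24.8 FPKM untreated, with a log2 ratio of -1.30 (interval -2.15 to -0.45). LAMP1, a lysosomal membrane protein, had 16.2 FPKM with palmitoleate, 19.8 FPKM with palmitate and 33.7 FPKM untreated, with a ratio of -0.81 (interval -1.42 to -0.19). SQSTM1, an autophagy adaptor named after its values were seen, had 26.5 FPKM with palmitoleate, 271 FPKM with palmitate and 40.7 FPKM untreated, a ratio of -0.07 for palmitoleate.

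Of 31 genes of glycolysis and hypoxia 1 was higher, the growth factor VEGFA (3.23%, against 6.16% at like GC content). In the same list 4 were lower (12.9%, against 5.88%), with a median of -0.16. ALDOA, an aldolase, had 314 FPKM with palmitoleate, 299 FPKM with palmitate and 686 FPKM untreated, and SLC2A1, the glucose carrier GLUT1, had 16.03, 13.5 and 34.7 FPKM in the same libraries. Both metallothioneins that could be compared were higher, against 7.97% higher at like GC content. MT2A, which binds zinc and copper, had 124 FPKM with palmitoleate, 76.0 FPKM with palmitate and 63.3 FPKM untreated, with a log2 ratio of 1.32 (interval 0.47 to 2.18), and MT1X had 21.3, 8.96 and 13.3 FPKM in the same libraries. Metallothionein genes are near-identical copies, and their split is uncertain.

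The cell cycle lists had medians near 0. Of 34 genes of DNA replication 0 were higher and 2 were lower (5.88%, against 4.86% at like GC content), with a median of 0.01. With palmitate 19 of them were lower, over a background of 11.4%. Of 24 mitotic genes 0 were higher and 2 were lower (8.33%, against 3.22% at like GC content), with a median of 0.01. The lower ones were the kinase PLK1 and MKI67, a proliferation marker, with 14.7 FPKM with palmitoleate, 12.2 FPKM with palmitate and 26.5 FPKM untreated. MYC had 92.2 FPKM with palmitoleate, 92.7 FPKM with palmitate and 123 FPKM untreated. Of 31 proteasome genes 1 was higher and 1 was lower (3.23% each, against 3.89% and 4.12% at like GC content). Of 16 cytosolic heat shock genes 1 was higher (6.25%, against 4.90%) and 0 were lower (against 4.68%). The p53 targets stood further from such a background, with 3 of 14 higher (21.4%, against 5.53%) and 0 lower, but 1 was higher with the length trend removed. Of 14 interferon response genes 2 were higher (14.3%, against 7.17%) and 1 was lower, and with the GC trend kept 0 were higher and 0 lower. Of 26 heme and iron genes 2 were higher (7.69%, against 5.21% at like GC content) and 0 were lower (against 5.18%).

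**Figure D5:**
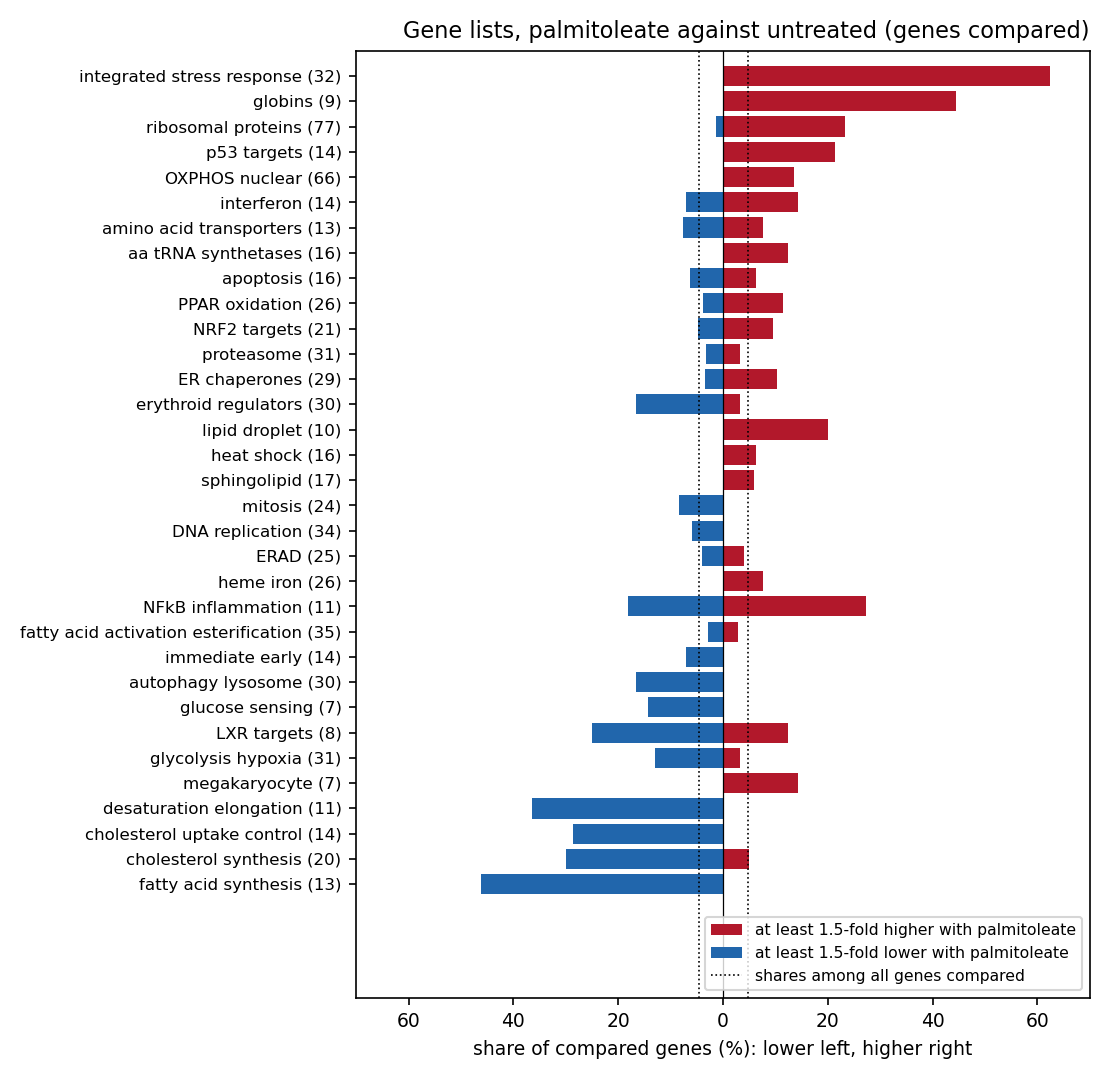
Share of the compared genes of each list (number in brackets) that were at least 1.5-fold lower (left) or higher (right) with palmitoleate than untreated by the GC-adjusted ratio, ordered by the list's median. The dotted lines mark the shares among all 10287 genes, 4.67% lower and 4.87% higher. Many lists pass a line, among them the ATF4 program (62.5% higher), the globins (44.4% higher) and fatty acid synthesis (46.2% lower).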

How the data were processed

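Per the labels' protocols, libraries were made from pooled RNA with a stranded poly(A) kit, and TopHat2 (hg19) and Cuffdiff did mapping and quantification, per the submitters' processing notes, versions not given in the sources used here. The deposited values are FPKM, scaled by the authors between the libraries of 1 table. The p-value, q-value and fold columns the authors deposited were not used. The tables also hold 2 libraries that the labels lack, which were not used.

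Ratios are log2(FPKM + 1) differences within 1 table, so they understate the change of low genes. The trend on GC content (lowess, window of 0.3 of the genes, statsmodels 0.14.6) was removed, with GC content and length from the longest GENCODE transcript on GRCh37. Of 10844 genes at a mean of at least 1 FPKM, 141 small RNA genes were set aside, GC content was found for 96.2% of the rest, and 403 genes without it and 13 without a value in the other tables were left out. A median or share over a list covers its compared members only. limma 3.58.1 in R 4.3.3 (empirical Bayes, intensity trend) took the spread from the palmitate ratios of experiments 1, 2 and 3, with 2 residual and 4.42 prior degrees of freedom. The scripts were checked on simulated data.

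Experiments pair the libraries in part. After the mean over experiments was removed, the untreated and palmitate libraries of experiments 1, 2 and 3 correlated across genes at 0.281, 0.687 and 0.46. Libraries of different experiments correlated at -0.616 to 0.415. Each untreated library correlated best with the palmitate library of its experiment. The palmitate library of experiment 1, however, correlated better with the untreated library of experiment 3 (0.415) than with its own (0.281).

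The named genes are a panel of 22, the 15 largest ratios in each direction at a mean of at least 5 FPKM with the same sign as deposited, and the 4 largest of each list; some genes these rules name are not reported here. The comparison, the lists and the panel were chosen with earlier results of these data known. GC-adjusted values of the palmitate and mixture libraries were made in the same way. IL8 is now CXCL8. RefSeq promoter windows come from GRCh38.p14.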

Additional observations from a re-analysis of the deposited data

How the results depend on the processing

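The number of genes at least 1.5-fold higher was 501, and 309 with no filter on expression, 294 with GC and length trends removed, and 74 at 2-fold. The number of genes at least 1.5-fold lower was 480, and 1071 with no filter, 1979 with the GC trend kept, 2057 with that ratio centred on its median, and 56 at 2-fold. Other settings (a pseudocount of 0.1 FPKM, a mean of at least 5 FPKM, the 200 nearest genes, small RNA genes kept) left both counts within 1.5 times. limma called 0 genes, 0 to 1 when each experiment was left out in turn (the 1 came without replicate 1, which leaves 1 residual degree of freedom), and 6 with small RNA genes kept. Without the pairing by experiment (no replicate block) it called 0.

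Of 111 named genes past 1.5-fold, 91 stayed past it with GC and length trends removed, 89 against the 200 nearest genes and 76 with the GC trend kept. Under the last, 5 changed sign: APOE to -0.37, CDKN1C to -0.16, HSPB1 to -0.25, SDF2L1 to -0.0622 and SPHK1 to -0.0776, and with centring to -0.39, -0.18, -0.26, -0.0815 and -0.0969. The cause was not tested. Depth is unknown, and with 1 library on each side no difference here can be told from the variation between cultures.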
